A study of Mus musculus with 8 samples.

Results

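Purinergic receptors and the enzymes that make and clear their ligands were compared between MHCII-high and MHCII-low macrophages of mouse pancreas tumours. The set held 34 genes, chosen by name from the 37074 gene names on the array. Receptors were 7 ATP-gated P2X channels, 8 G protein-coupled P2Y receptors and 4 adenosine (P1) receptors. A further 11 were enzymes grouped with the route from ATP to adenosine, some of which, such as Entpd4, act inside cells. The rest were 3 genes that clear adenosine or, in human cells, anchor its deaminase, and the ATP release channel Panx1. Probes had to be above background, by the scanner software's own test, on 4 or more of 8 arrays, which left 28036 genes to test and 33 of the 34 members. The exception was P2ry4, a receptor for UTP, which was above background on none of the 8 arrays.

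Cells release ATP when they are stressed, damaged or activated, and ATP outside the cell opens P2X channels and acts on P2Y receptors, which bind ATP, ADP, UTP, UDP or UDP-sugars according to the receptor. Ectonucleotidases remove the phosphates in steps, with Entpd1 (CD39) taking ATP to AMP and Nt5e (CD73) taking AMP to adenosine, and adenosine then acts on the P1 receptors until it is deaminated by Ada or phosphorylated inside cells by Adk. In macrophages, ATP acting on P2X7 is known for inflammasome activation, and adenosine acting on the Gs-coupled receptors of Adora2a and Adora2b for raising cyclic AMP and restraining inflammatory output.

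Each group held 4 samples with 1 array each. Both groups were macrophages from pancreas tumours of female mice, 8 to 10 weeks old, of a strain labelled FvBn, and they differed in the label MHCII High or Low, that is, in how much MHC class II, the antigen-presenting complex read by helper T cells, was labelled. The genotype was labelled as not provided. The series' design text names normal pancreas or pancreatic cancer of FLT3-CRE/LSL-YFP, KPC or wild-type mice, without saying which gave these samples. Per the labels, tumours had been implanted, and cells went by flow cytometry straight into a lysis solution; other gates, the implanted tumour cells and any pooling of animals are not stated in the labels. Each group carried the label numbers 20435, 20436, 20439 and 20442 once, and these numbers name the samples here. The labels do not say that same-group samples were separate animals, so every p-value refers to the variation among these 8 samples alone, part or all of which may be technical. RNA was amplified before labelling, and in such bulk samples fewer cells of a type and less RNA per cell cannot be told apart.

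Between 38756 and 42120 of 56605 probes were above background per array, and no spot was saturated. All 8 arrays lay on 1 slide, with 1 MHCII-high and 3 MHCII-low arrays in row 1 and 3 MHCII-high and 1 MHCII-low in row 2, so each comparison was also fitted with slide row as a block, and in each row 1 group has only 1 array. Among the markers of the labelled cell type, all 8 macrophage genes were above background in both groups. Of these 8, 7 had negative differences, and 4 were lower in MHCII-high without overlap of the groups. Only 1 of them, Adgre1 (F4/80), passed the test (log2 -1.69, limma adjusted p = 0.00446). The summed level of all 8, on a linear scale, was 80.3 to 108 in MHCII-high against 123 to 161 in MHCII-low. Of 9 conventional dendritic cell markers other than the member Dpp4, 8 were higher in MHCII-high (all but Xcr1). Their summed level on the same scale was 17.7 to 27 against 3.18 to 5.12. Of 8 markers of serous-cavity macrophages, 7 were lower, with summed levels of 44.6 to 58.4 against 89.4 to 114. Over all genes, 2.68% were called higher and 2.25% lower. The marker lists were chosen with earlier results of these data known, so these counts are not independent support for a cell type. None of the markers in these 3 lists was below background on all arrays of a group.

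The P2X and P2Y roles each held 1 member that was far higher in MHCII-high cells. So did the role of Ada, Adk and Dpp4, through Dpp4 alone. The lower members were 3 receptors and 1 enzyme. P2rx5, an ATP-gated channel, was 11.3-fold higher in MHCII-high cells, P2ry10, a receptor of the P2Y branch, 20.4-fold higher, a size that rests partly on 1 MHCII-low array not above background, and Dpp4 (CD26), a cell-surface peptidase that anchors adenosine deaminase in human cells, 10.5-fold higher. P2rx1, P2ry2, Adora2b and Entpd4 were lower by 1.67- to 3.29-fold. The CD39 gene Entpd1 and the adenosine receptor gene Adora2a did not pass the test, and for each the 95% interval of the difference lay within 0.61 of 0 on the log2 scale. In all, 3 members rose and 4 fell of 33 tested, at a limma adjusted p under 0.05, against a background of 4.93% of all 28036 genes called (2.68% higher and 2.25% lower). With slide row as a block, 1.62% of all genes were called (1.07% higher and 0.553% lower), and 2 of the members called higher kept the call (P2rx5 and Dpp4) and 0 members were called lower by limma, while at an unadjusted p under 0.05 10 of 33 were lower (6.99% of all genes), and 9 without the block (9.08% of all genes). With the label number as a block, 2.89% of genes were called (1.71% higher and 1.18% lower), and 3 members were higher and 0 lower, with 10 lower at an unadjusted p under 0.05 (9.27% of all genes).

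**Figure D1:**
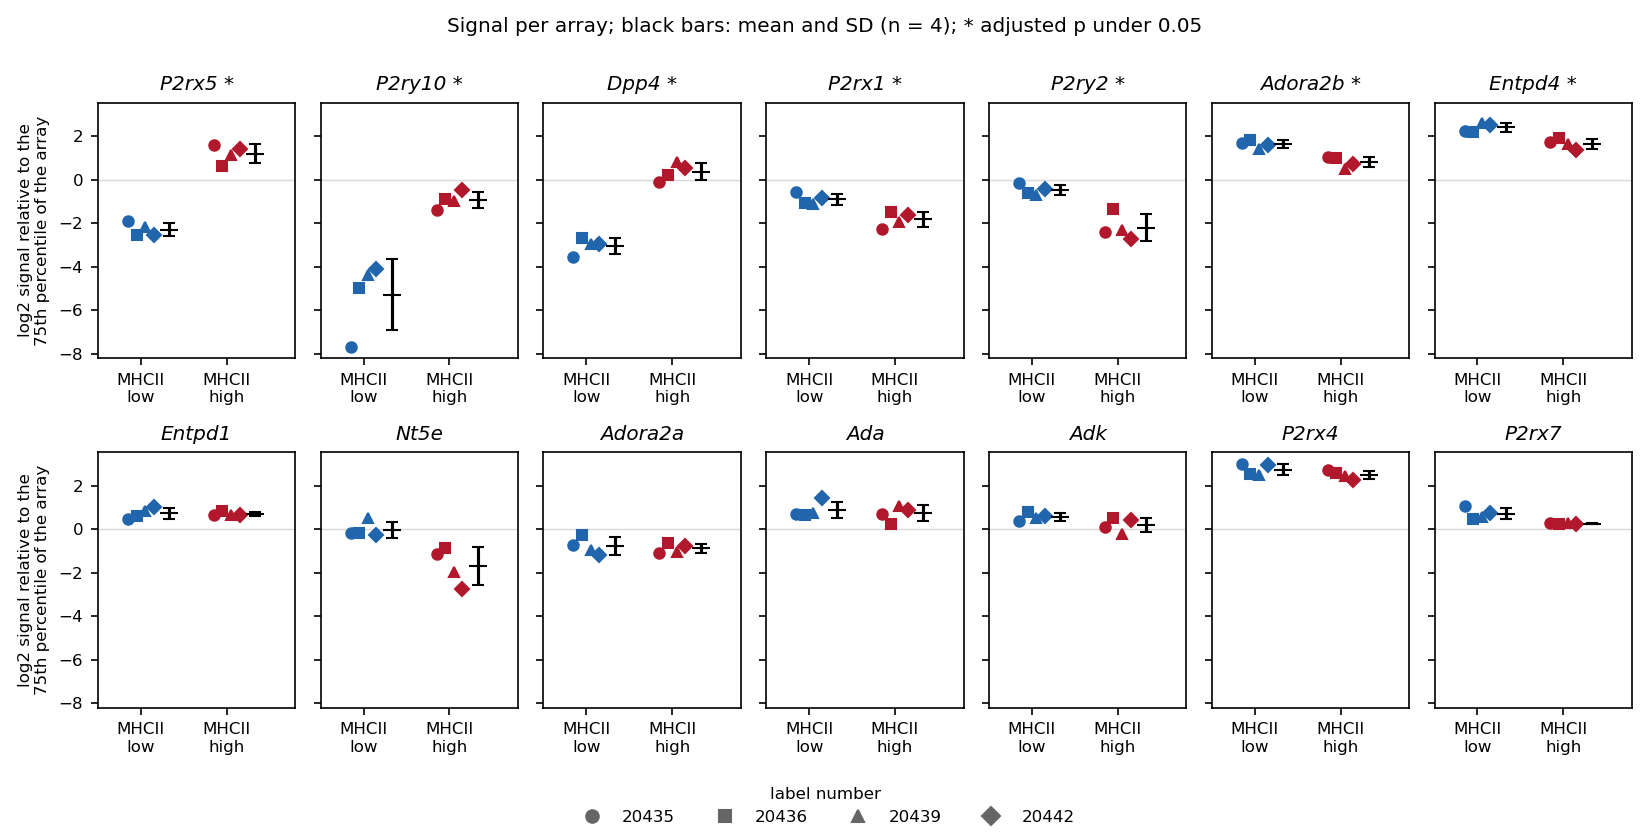
Signal of 14 members on each array (y axis, log2 relative to the 75th percentile of that array), with MHCII-low in blue and MHCII-high in red, marker shape giving the label number and black bars the mean and SD of 4 arrays. P2rx5, P2ry10 and Dpp4 in MHCII-high sit clear above MHCII-low, P2rx1, P2ry2, Adora2b and Entpd4 sit below it, and Entpd1, Adora2a and Ada overlap; an asterisk marks an adjusted p under 0.05.

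Several members were read by more than 1 probe, and the probes did not always give the same difference, so the first bases of the probes behind the main results are shown. Each line is the first 30 bases of a probe, 5′ to 3′ as deposited, in lower case because no part of it is singled out.
P2rx5, brightest probe: gctctcagaagcccagccttgatgtgctaa
P2rx5, other probe: tttattggtgcatgctgcattttagtccta
P2ry10, brightest probe: tcttctcaagttgacaattcactggtattt
P2ry10, other probe: gggattagcatgattctgggtagagtcttc
Dpp4, brightest probe: caaagcactgacttctaagtaaaaccacag
Dpp4, second probe: aatgaaagctttgtgtatgtcagaggacag
Dpp4, dim probe: aattggacttcattgttttgaatgaaacaa
P2rx1, brightest probe: accagctccactctgggcctgcaggagaac
P2rx1, other probe: tcaggtggagaagtaaccctgatgaatctt
Nt5e, brightest probe: accgtttaaaattccaatccttttatgaag
Nt5e, other probe: attaggcctatgattgcagagtgttagagt
The files place the P2rx5 probes at chr11:72986128-72986187 and chr11:72985662-72985721, and those of P2ry10 at chrX:104300083-104300142 and chrX:104299663-104299722 (build mm9). The Dpp4 probes lie on the minus strand at chr2:62170062-62170121 for the brightest, chr2:62245782-62245841 for the second and chr2:62192636-62194702, across a splice, for the dim one. The P2rx1 probes lie at chr11:72827584-72827643 and chr11:72828564-72828623, and the Nt5e probes at chr9:88266616-88266675 and chr9:88225916-88225975. Exons and UTRs at these positions were not analysed here.

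Among the ATP-gated channels, 1 of 7 rose and 1 fell, against 2.68% and 2.25% of all genes. The median log2 difference (MHCII-high minus MHCII-low throughout) was -0.29, against 0.00 over all genes tested. P2rx5 encodes a channel subunit known from lymphoid cells and osteoclasts. Its level, on the log2 scale relative to the array's 75th percentile, was 1.61, 0.62, 1.14 and 1.41 in MHCII-high samples 20435, 20436, 20439 and 20442, and -1.92, -2.56, -2.19 and -2.54 in the MHCII-low samples in the same order. Every MHCII-high sample was above every MHCII-low sample, with a gap many times the spread within either group. The difference was 3.50 (SE 0.25), or 11.3-fold (95% interval 7.61 to 16.8, limma adjusted p = 0.000506). It was 2.85 within slide row 1 and 3.92 within row 2, and 3.39 with row as a block (adjusted p = 0.00481). The other P2rx5 probe also separated the groups, with a smaller difference of 1.59. The difference was 2.69 with normexp background correction and 2.54 with the mean of the probes, both below the lower end of that 95% interval.

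P2rx1, an ATP-gated channel known from platelets, neutrophils and smooth muscle, was the channel that fell. Its level was -2.28, -1.48, -1.93 and -1.63 in MHCII-high and -0.57, -1.07, -1.14 and -0.83 in MHCII-low samples, in the same order of label numbers. The groups did not overlap, but the nearest samples, 20436 of MHCII-high and 20439 of MHCII-low, were close. The difference was -0.93 (SE 0.22), or 1.91-fold lower (95% interval 1.35 to 2.69, limma adjusted p = 0.0486), and it no longer passed when any 1 of the 8 arrays was left out (0.0519 to 0.131) or with row as a block (0.17). The difference was -0.56 within row 1 and -1.12 within row 2. The other P2rx1 probe, above background on all arrays, gave -0.01. The summed level of 5 platelet and megakaryocyte markers was 7.62 to 9.43 in MHCII-high and 16.3 to 29 in MHCII-low samples, and none was below background throughout a group. The markers did not move one way: Pf4 was called lower (-1.37), Ppbp was at -1.60, and Gp9, Gp1ba and Itga2b were at 3.54, 0.49 and 0.32, these 4 not past the threshold, so that the list median was 0.32. Their part in the P2rx1 difference was not tested.

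The remaining channels did not pass the test. P2rx7, the channel of inflammasome activation, was 0.27, 0.23, 0.29 and 0.26 in MHCII-high and 1.06, 0.49, 0.54 and 0.76 in MHCII-low samples. The MHCII-high samples were nearly equal and all below the MHCII-low ones, and the difference was -0.45 (95% interval -0.81 to -0.09, limma adjusted p = 0.156), with its other probes at -0.79 and -0.44. P2rx4, which forms the other major macrophage P2X channel, was 2.70, 2.59, 2.44 and 2.24 against 2.98, 2.55, 2.49 and 2.94. These groups overlapped, and the difference was -0.25 (95% interval -0.66 to 0.16, limma adjusted p = 0.493). The other P2rx4 probes, with transcripts not matched in RefSeq, gave 0.66 and -0.04. P2rx2, P2rx3 and P2rx6, best known from neurons and, for P2rx6, as a partner subunit, overlapped between the groups with differences of -0.29, -0.38 and 0.19.

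Of the 7 P2Y receptors tested, 1 rose and 1 fell, against 2.68% and 2.25% of all genes, and the median difference was -0.88. P2ry10 belongs to the P2Y branch by sequence and is known as a receptor for lysophosphatidylserine, not for a nucleotide. Its level was -1.40, -0.89, -1.0 and -0.47 in MHCII-high samples and -7.68, -4.99, -4.38 and -4.13 in MHCII-low samples. All MHCII-high samples were far above all MHCII-low samples, and the lowest, MHCII-low 20435, was not above background. The difference was 4.35 (SE 0.72), or 20.4-fold (95% interval 6.59 to 63.5, limma adjusted p = 0.0146). Since 3 of 4 MHCII-low arrays measured it, the size depends on that array and on how background was handled: it was 3.56 without MHCII-low 20435 (adjusted p = 0.00243) and 2.33 with normexp background correction (adjusted p = 0.000402). It was 4.80 within row 1, 3.17 within row 2 and 3.98 with row as a block (adjusted p = 0.0709). The other probe gave 2.43, and the mean of the probes 3.39.

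P2ry2, a receptor for ATP and UTP known for guiding phagocytes to dying cells, was the P2Y receptor that fell. Its level was -2.39, -1.34, -2.30 and -2.75 in MHCII-high and -0.17, -0.62, -0.70 and -0.42 in MHCII-low samples. The groups did not overlap, and MHCII-high 20436 lay nearest to MHCII-low. The difference was -1.72 (SE 0.30), or 3.29-fold lower (95% interval 2.06 to 5.26, limma adjusted p = 0.017). It was -0.85 within row 1, -2.06 within row 2 and -1.45 with row as a block (adjusted p = 0.0721), and it missed the threshold without MHCII-low 20435 (0.051) or MHCII-high 20439 (0.0569). Its other probe was above background on no array.

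The ADP receptors P2ry12 and P2ry13 had lower mean levels in MHCII-high but did not pass. P2ry12, known from platelets and microglia, differed by -0.99 with no overlap (limma adjusted p = 0.0837). P2ry13 differed by -0.88 (adjusted p = 0.134), its MHCII-low sample 20435 lying at 0.49 among MHCII-high values of 0.15 to 0.75, and without that sample its adjusted p was 0.0481. P2ry1, also an ADP receptor, was above background on 2 MHCII-high and 3 MHCII-low arrays, and the SE of its difference (-1.16, SE 1.14) was as large as the difference. P2ry6, for UDP, and P2ry14, for UDP-glucose, overlapped between the groups, at differences of 0.03 and 0.25.

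Several receptor genes lie near one another, and their differences are given side by side, with no test between them. The main probes of P2rx1 and P2rx5 lie 158.5 kb apart on chromosome 11, at -0.93 and 3.50, and those of P2ry2 and P2ry6 59.3 kb apart on chromosome 7, at -1.72 and 0.03. Those of P2rx4 and P2rx7 lie 55.6 kb apart on chromosome 5, at -0.25 and -0.45. On chromosome 3, P2ry12 and P2ry13 lie 8.5 kb apart at -0.99 and -0.88. P2ry14, 93.4 kb from P2ry13, was at 0.25, and Gpr171, a receptor near the P2Y family 17.6 kb from P2ry14, was higher in MHCII-high at 2.14 (limma adjusted p = 0.00635).

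**Figure D2:**
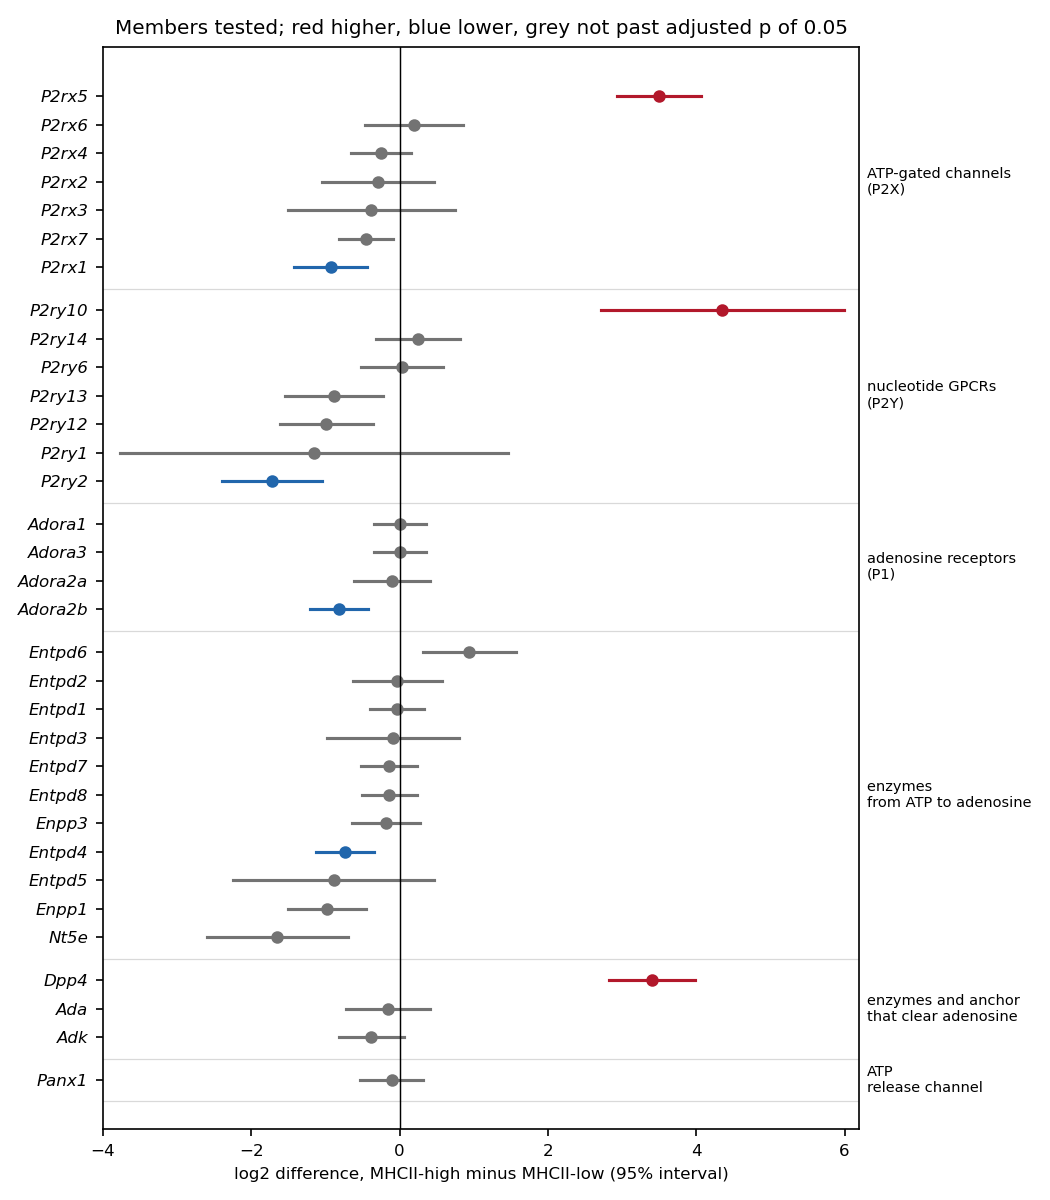
Log2 difference of each of the 33 tested members (x axis, MHCII-high minus MHCII-low, point and 95% interval), ordered within its role; red marks higher, blue lower and grey not past an adjusted p of 0.05. P2rx5, P2ry10 and Dpp4 stand apart at 3.50, 4.35 and 3.40, and the other members lie between -1.72 and 0.94.

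Among the 4 adenosine receptors, 1 fell and none rose, against 2.25% and 2.68% of all genes. Adora2b encodes the Gs-coupled receptor with low affinity for adenosine. Its single probe read 1.02, 0.98, 0.50 and 0.72 in MHCII-high and 1.68, 1.82, 1.40 and 1.60 in MHCII-low samples. The groups did not overlap, and the spread within each was small. The difference was -0.82 (SE 0.17), or 1.77-fold lower (95% interval 1.35 to 2.32, limma adjusted p = 0.0329). It was -0.65 within row 1 and -0.86 within row 2, but did not pass with row as a block (adjusted p = 0.129) or in 7 of 8 fits with 1 array left out, all but the one without MHCII-high 20435.

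Adora2a encodes the Gs-coupled receptor of high affinity. It was -1.10, -0.64, -1.03 and -0.76 in MHCII-high and -0.71, -0.25, -0.97 and -1.19 in MHCII-low samples, with full overlap. Its difference was -0.10 (95% interval -0.61 to 0.41, limma adjusted p = 0.85). To ask whether the 2 receptors changed unequally, the Adora2a minus Adora2b log2 ratio was compared within arrays: it was -1.68 ± 0.30 (SD, n = 4) in MHCII-high and -2.41 ± 0.29 in MHCII-low, a difference of 0.73. That difference did not pass an exact two-sided permutation test (p = 0.0571, adjusted over 3 such pairs 0.0857, the smallest p this design allows being 0.0286). The Gi-coupled receptors Adora1 and Adora3 both differed by 0.00 on their brightest probes, with 95% intervals from -0.34 to 0.35 and from -0.35 to 0.36. A dimmer Adora1 probe, above background on 3 MHCII-high and 4 MHCII-low arrays, gave -0.98 without overlap, and the mean of the Adora1 probes gave -0.49.

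Of the 11 enzymes grouped with the route from ATP to adenosine, none rose and 1 fell by limma, against 2.68% and 2.25% of all genes. That 1, Entpd4, does not act at the cell surface. At an unadjusted limma p under 0.05, 1 was higher and 3 lower, against 10.6% and 9.08% of all genes. Without a block 10 of 11 differences were negative, against 49.8% of all genes, with a median of -0.14. With slide row as a block 63.6% of the 11 were negative, against 51% of all genes. Entpd1 (CD39), which removes phosphates from ATP and ADP at the cell surface, was 0.63, 0.84, 0.65 and 0.66 in MHCII-high and 0.47, 0.59, 0.83 and 1.02 in MHCII-low samples. The MHCII-high values lay within the MHCII-low range, and the difference was -0.03 (95% interval -0.40 to 0.33, limma adjusted p = 0.936). Its other probes gave 0.04 and 0.35.

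Nt5e (CD73), which makes adenosine from AMP, was -1.13, -0.85, -1.98 and -2.77 in MHCII-high and -0.18, -0.19, 0.51 and -0.29 in MHCII-low samples. Every MHCII-high sample was below every MHCII-low sample, with MHCII-high 20442 the lowest. The difference was -1.65 (SE 0.42, 95% interval -2.59 to -0.70), which did not pass (limma adjusted p = 0.0627). It passed with normexp background correction (-1.24, adjusted p = 0.021), with the filter at all 8 arrays (0.037) and without MHCII-high 20436 (0.0444), and was -1.28 with row as a block (0.206) and -0.58 with the mean of its probes (0.155). The other Nt5e probe, whose transcript was not matched in RefSeq, went the opposite way without overlap, at 0.49 (-0.81 ± 0.28 against -1.30 ± 0.22, SD, n = 4). Within arrays, the Entpd1 minus Nt5e log2 ratio was 2.38 ± 0.83 in MHCII-high and 0.76 ± 0.41 in MHCII-low, with no overlap and a difference of 1.61. This reached the smallest p of the exact two-sided permutation test (0.0286) but not the threshold after adjustment over the 3 pairs (0.0857). At that smallest p, 1 pair alone cannot pass after the adjustment. The difference of ratios was 0.70 with the mean of each gene's probes.

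Entpd4, which cleaves nucleoside diphosphates in the Golgi and lysosomes and not at the cell surface, was the enzyme that fell. It was 1.73, 1.92, 1.62 and 1.37 in MHCII-high and 2.26, 2.20, 2.61 and 2.52 in MHCII-low samples, without overlap. The difference was -0.74 (SE 0.17), or 1.67-fold lower (95% interval 1.27 to 2.19, limma adjusted p = 0.0486), and its other probes gave -0.80 and -0.91. Like that of P2rx1, its call was lost in each of 8 fits with 1 array left out (0.0571 to 0.131) and with row as a block (0.162), and the difference was -0.44 within row 1 and -0.95 within row 2.

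Enpp1, which cleaves ATP to AMP and pyrophosphate and degrades the dinucleotide cGAMP outside cells, lay just outside the threshold. It was 0.48, 0.21, 0.45 and -0.43 in MHCII-high and 1.25, 0.95, 1.0 and 1.43 in MHCII-low samples, without overlap, a difference of -0.98 (limma adjusted p = 0.0504). Its dimmer probes, with transcripts not matched in RefSeq, gave -0.31 and 0.37. Entpd6, a Golgi enzyme that can be secreted, was the one with a positive difference, 0.94, also without overlap but not past the threshold (adjusted p = 0.0969), and its other probe gave 0.10. Entpd5, of the endoplasmic reticulum, differed by -0.89 with an SE of 0.60. Entpd2, Entpd3, Entpd7, Entpd8 and Enpp3 overlapped between the groups, at differences from -0.18 to -0.03.

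Dpp4 was the one gene that rose in the role it shared with Ada and Adk. It was placed there as an anchor known in human cells, and anchoring was not measured in these mouse samples. The level of Dpp4 was -0.10, 0.22, 0.80 and 0.52 in MHCII-high and -3.56, -2.67, -2.98 and -2.94 in MHCII-low samples. The groups were separated by more than the whole range of either. The difference was 3.40 (SE 0.25), or 10.5-fold (95% interval 7.05 to 15.7, limma adjusted p = 0.000617), 3.29 within row 1, 3.35 within row 2 and 3.32 with row as a block (adjusted p = 0.00576). The second Dpp4 probe, above background on all 8 arrays but with its transcript not matched in RefSeq, gave 0.00. The dim probe, above background on 3 MHCII-high and no MHCII-low arrays, gave 2.36. With the mean of the probes the difference was 1.70 (adjusted p = 0.00286), and with normexp background correction 2.63. Dpp4 is itself a marker of a dendritic cell subset, and the other dendritic cell markers moved with it, with P2rx5 and with P2ry10, as given above; their part in these 3 results was not tested. The serous-cavity macrophage markers moved with P2rx1, P2ry2, Adora2b and Entpd4, and their part was likewise not tested.

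The deaminase Ada and the kinase Adk, which remove adenosine itself, did not pass. Ada was 0.69, 0.25, 1.07 and 0.90 in MHCII-high and 0.70, 0.63, 0.76 and 1.45 in MHCII-low samples, and Adk 0.08, 0.50, -0.21 and 0.40 against 0.38, 0.80, 0.53 and 0.59. Both overlapped, with differences of -0.16 (95% interval -0.72 to 0.41) and -0.38 (-0.82 to 0.06). Their within-array log2 ratio differed by 0.23 (exact two-sided permutation p = 0.6, adjusted 0.6). Panx1, the pannexin channel through which cells release ATP, differed by -0.10 (95% interval -0.53 to 0.32).

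**Figure D3:**
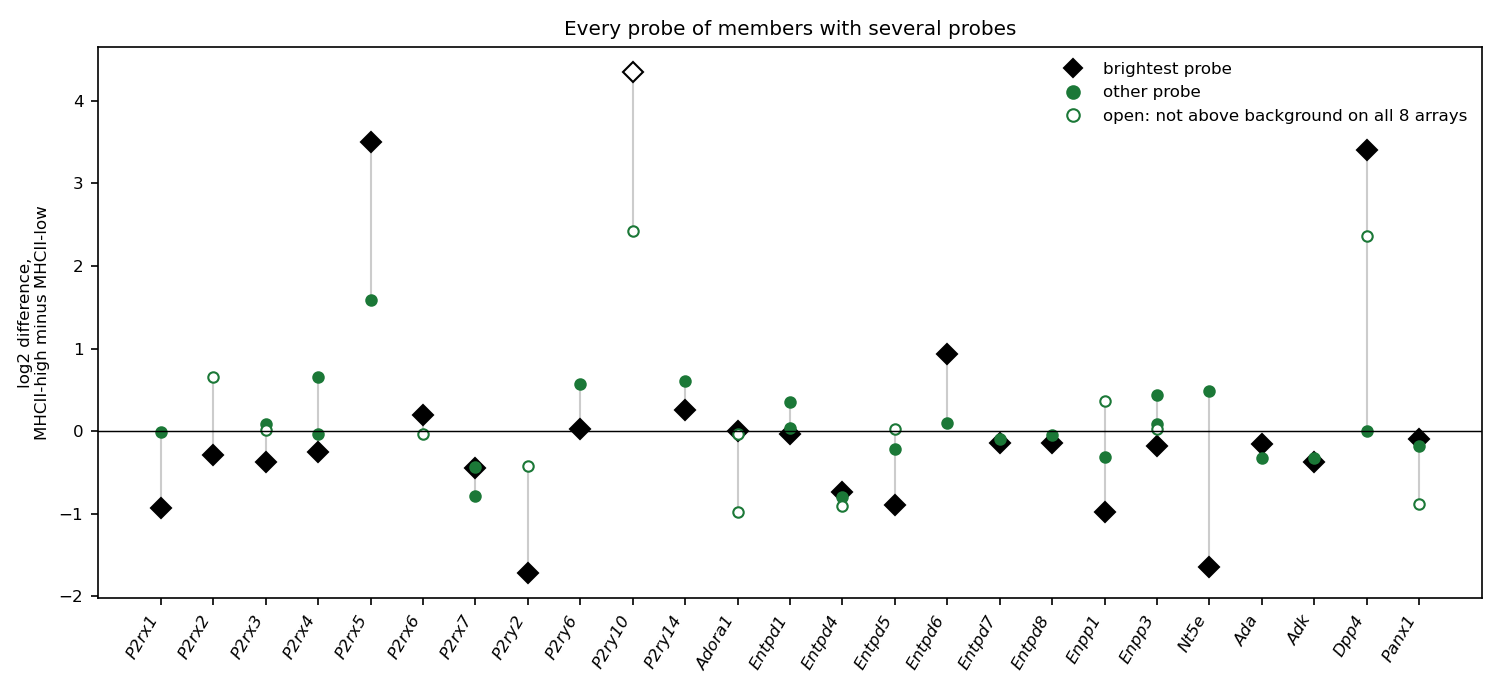
Log2 difference (y axis, MHCII-high minus MHCII-low) of every probe of the 25 members with several probes; diamonds are the brightest probe, circles the others, and open symbols were not above background on all 8 arrays. P2rx5 and P2ry10 probes lie on one side of 0, while the Nt5e probes lie on both sides and a Dpp4 and a P2rx1 probe lie at 0.

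Across the set, 71 probes carried a member's name, 51 of them with a transcript matched to that gene in RefSeq, 20 unmatched and 0 matched to another gene. Of 20 members with at least 2 probes above background on all arrays, 14 had the same sign on all such probes. Of the 33 tested, 9 differences were positive and 24 negative, with a median of -0.16, and the median size was 0.38 against 0.27 over all genes. The groups did not overlap for 12 members, 4 higher and 8 lower in MHCII-high, against 14.4% of all genes (7.48% higher and 6.96% lower).

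**Figure D4:**
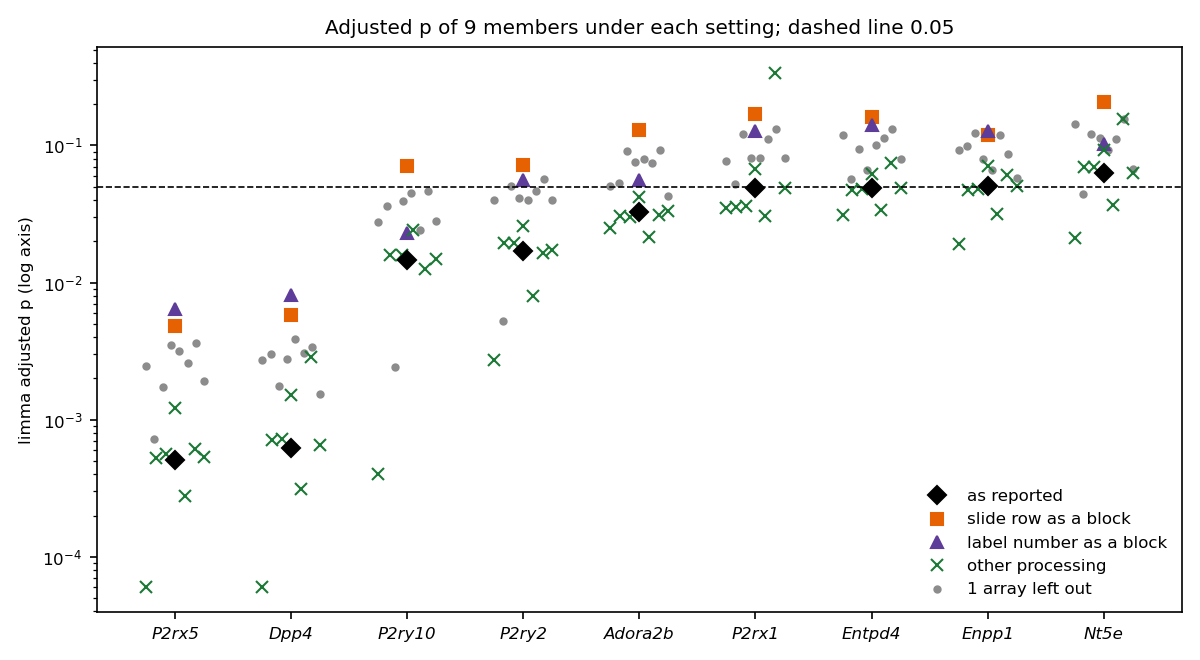
Limma adjusted p (y axis, log scale) of 9 members under each processing alternative, with the reported value as a black diamond and a dashed line at 0.05. P2rx5 and Dpp4 stay under the line in every alternative shown, and P2ry10 crosses it with slide row as a block. P2ry2, Adora2b, P2rx1, Entpd4, Enpp1 and Nt5e lie on both sides of it. P2ry2 ranges from 0.00274 to 0.0721, Adora2b from 0.0215 to 0.129, P2rx1 from 0.0305 to 0.339 and Nt5e from 0.021 to 0.206.

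Other genes of nucleotide and adenosine handling were followed in 5 lists of 75 genes, of which 70 were tested, 3 rose and 8 fell. Of all genes tested, 2.68% were called higher and 2.25% lower. With slide row as a block, 2 of the 70 were called higher and 2 lower, against 1.07% and 0.553% of all genes. Ectoenzymes and purine nucleoside enzymes held 6 of the 8 falls without the block, among 22 tested, and no rise. These were Ampd3, the AMP deaminase (-1.71, limma adjusted p = 0.00935), Bst1 (-1.95, adjusted p = 0.0127) and Cd38 (-1.07, 0.0229), both NAD-consuming ectoenzymes, Xdh, the xanthine dehydrogenase (-1.18, 0.0307), Ak1, the adenylate kinase (-2.19, 0.0394), and Acpp, an acid phosphatase that can cleave AMP (-1.41, 0.0487). With row as a block 1 of the 6, Ampd3, passed. The largest that did not pass were Enpp6 (-0.66) and Cant1 (0.59).

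Of 13 genes of nucleotide release and nucleoside transport, the concentrative transporter Slc28a2 fell (-0.89, limma adjusted p = 0.0429) and none rose, while Slc29a2 and Lrrc8a, at 1.26 and -0.72, did not pass. Of 5 other receptors near the P2Y family, Gpr171 was the one that rose, and Gpr17 (1.48) and Gpr34 (-0.89) did not pass. None of 9 genes of P2X7 and inflammasome output passed in limma (1 higher and 4 lower at an unadjusted p under 0.05, against 10.6% and 9.08% of all genes), the largest being Il18 (-1.62) and Casp1 (-0.72). Of 21 genes of the cyclic AMP response, Nr4a3 (1.32, adjusted p = 0.00721) and Crem (0.62, 0.0468), both transcription factors induced by cyclic AMP, rose, and Adcy3, an adenylyl cyclase, fell (-1.42, 0.0137). Another Crem probe above background on all 8 arrays gave -0.28, further ones 1.05 and 1.42, and the Crem call was lost with the mean of probes and with row as a block (adjusted p = 0.0819). Adcy9 (-0.98) and Pde4d (-0.77) did not pass. Ampd3, Gpr171, Nr4a3 and Adcy3 passed in 17 of 17 alternatives, Bst1 in 16, and the other 6 in 6 to 11.

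The sequence before the start sites was searched in RefSeq (GRCm38.p6) for motifs bound by factors of macrophages and dendritic cells, on both strands: GAGGAAGT (PU.1 core), 2 copies of GAAA with 2 bases between them (IRF repeat) and TGANTCA (AP-1). In windows of 250 bases, the table held 38 starts of 28 members. The PU.1 core was in 2 of these 38 windows (P2ry10 and Adora3) and in 2.44% of all 32851 windows, the IRF repeat in 1 (Dpp4) and in 2.98%, and AP-1 in 9 and in 6.75%. A window each of Dpp4 and P2ry10, both far higher in MHCII-high, is shown with its match in capitals. In both the motif reads on the reverse strand, and each window holds 1 match.
Dpp4, chr2:62412232-62412481, minus strand, IRF repeat: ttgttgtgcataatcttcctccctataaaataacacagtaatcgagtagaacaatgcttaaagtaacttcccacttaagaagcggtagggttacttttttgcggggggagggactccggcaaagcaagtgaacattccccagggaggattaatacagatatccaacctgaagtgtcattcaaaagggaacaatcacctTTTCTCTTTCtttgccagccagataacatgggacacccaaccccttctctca
P2ry10, chrX:107089083-107089332, plus strand, PU.1 core: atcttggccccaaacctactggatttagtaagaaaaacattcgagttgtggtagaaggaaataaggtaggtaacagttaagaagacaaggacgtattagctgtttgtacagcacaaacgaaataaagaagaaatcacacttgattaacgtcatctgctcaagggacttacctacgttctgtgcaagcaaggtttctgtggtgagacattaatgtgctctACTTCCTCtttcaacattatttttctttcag
These matches describe the letters in the windows, and binding at them was not analysed here.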

How the data were processed

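Macrophage RNA of 8 samples was measured on 1-colour Agilent mouse arrays. The deposited scanner files hold linear spot intensity, measured with Agilent Feature Extraction 11.5.1.1 and background-subtracted and detrended per the file headers. The deposited series table holds log2 values whose steps are not given in the sources used here; its columns correlated with quantile-normalized log2 signals at 0.999998 or more, with medians of 9.38137 to 9.38149.

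Control and outlier spots were left out, log2 processed signals were scaled to each array's 75th percentile, and spots of a probe were averaged. The brightest probe stood for a gene, under the file's gene name. Groups were compared with limma 3.58.1 (R 4.3.3; lmFit, eBayes, Benjamini-Hochberg over all genes, threshold 0.05), tested on simulated data, and 3 pairs of genes with exact permutation of 70 assignments. Called members, Entpd1, Nt5e, Adora2a, Adora2b, Ada, Adk, P2rx4 and P2rx7 are given in full, and companion genes where called or among the 2 largest not called per list. Windows and probe starts were chosen after values were seen. Members and lists were chosen with earlier results of these data known. The number of arrays limits the precision. Alternatives were normexp (offset 50), quantile normalization, the deposited log2 table, filters, probe choice, blocks for row or label number, and leaving out each array.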

Additional observations from a re-analysis of the deposited data

Results flagged for a closer look

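In 5 cases a value stood apart from the other samples of its group by Dixon's test at its 95% critical value, among 66 groups of 4 tested, and chance flags about 1 in 20 groups. P2ry12 was -3.21 in MHCII-high 20442, where the other MHCII-high samples were -2.31 to -2.18. P2ry14 was also low in that sample, at -0.37 against 0.28 to 0.38. Entpd6 was high in MHCII-high 20436, at -0.34 against -1.18 to -1.08. Nt5e was high in MHCII-low 20439, at 0.51 against -0.29 to -0.18. Ada was high in MHCII-low 20442, at 1.45 against 0.63 to 0.76.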

How the results depend on the processing

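P2rx5 and Dpp4 passed in 17 of 17 alternatives and P2ry10 in 15 of 16; P2ry2 passed in 13 of 17, Adora2b in 8, P2rx1 and Entpd4 in 5 each. Of 559 values of members under alternatives, 476 kept their direction and side of the threshold, 38 lost the call, 8 gained one (P2ry13, Enpp1 and Nt5e) and 37, of 14 members, changed sign; the cause was not tested. The genes called numbered 455 with row as a block and 556 to 1159 with 1 array left out. Members called lower numbered 0 with row as a block, 2 without the filter, 2 with the mean of probes, 0 to 2 with 1 array left out, 6 with normexp, 6 with the filter at all 8 arrays, and 5 with quantile normalization or the deposited table. Same-numbered samples deviated together with correlations of 0.085 to 0.21, not all over 0.1, so the numbers were not treated as pairs. Every sample still correlated best with its own number. With the label number as a block, 810 genes, 3 higher members and 0 lower members were called. There the pairs Entpd1 with Nt5e and Adora2a with Adora2b were tested by flipping the signs of same-numbered differences. Both had a sign-flip p of 0.125 before adjustment over the pairs. That is the smallest p such flips allow, so this test could not reach the threshold. The Entpd1 with Nt5e difference of ratios was 1.22 with normexp, 1.67 with quantile normalization and 1.67 with the deposited table, each with adjusted p = 0.0429 by exact permutation, 0.70 with the mean of probes (0.0857), 1.20 with the row block, and 1.26 to 1.84 with 1 array left out; for Adora2a with Adora2b it was 0.77, 0.67 and 0.67, also at 0.0429, and 0.60 to 0.87. An adjusted p of 0.0429 needs more than 1 of the 3 pairs at the smallest p of the permutation test, 0.0286. A pair there alone stays at 0.0857, so the step from 0.0857 to 0.0429 does not measure Entpd1 with Nt5e by itself. For Ada with Adk the difference of ratios was -0.22 with the row block and -0.02 to 0.49 with 1 array left out. Differences that changed sign with the row block were P2ry1 0.30, P2ry6 -0.03, Adora2a 0.12, Adora3 -0.11, Entpd2 0.15, Entpd3 0.41 and Entpd7 0.01. With the mean of probes they were P2rx2 0.18, P2rx4 0.12, Adora1 -0.49, Entpd1 0.12 and Enpp3 0.12, and with the brightest RefSeq-matched probe, chosen after seeing the data, P2rx3 0.08 and Enpp3 0.44. Adora1 was -0.02 with normexp, -0.06 with quantile normalization and -0.06 with the deposited table, and Adora3 -0.02 with normexp. With 1 array left out, the ranges that crossed 0 were P2rx3 -0.66 to 0.09, P2ry6 -0.14 to 0.18, Adora1 -0.10 to 0.06, Adora2a -0.23 to 0.08, Adora3 -0.06 to 0.08, Entpd1 -0.12 to 0.06, Entpd2 -0.20 to 0.15, Entpd3 -0.37 to 0.17 and Ada -0.27 to 0.03. P2ry4 was above background on 0 and P2ry1 on 5 of 8 arrays, which limits what can be said of their size.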
